A study of Mus musculus with 29 samples.

Results

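Ngef, Gpd1l, Golga5, Clec2h, Sdhaf4, Cfap20, Tab2, A930004D18Rik, Rnf25 and Nt5c3 are 10 of the 22028 coding genes counted in livers of male mice exposed to tributyltin (TBT) during development. They were chosen by their small p-values between TBT and VEH liver at 5 months, leaving out genes of the circadian clock. Their 5-month differences are therefore a description and carry no test. By p they hold ranks 1 to 4 and 6 to 11 of that comparison. Rank 5 was Wee1, a cell cycle kinase known as a clock output, with a log2 fold change of 2.04 (SE 0.35). The member just inside the limit was Nt5c3, at 0.51 (SE 0.09), and the genes just outside it were Tars at -0.82 (SE 0.15) and Pgap1 at 0.63 (SE 0.11).

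RNA-seq libraries came from 5 groups of male mice, with TBT given to the mothers in drinking water through gestation and lactation, and with an arm labelled VEH that is read here as the control. At 5 months of age there were 5 TBT and 6 VEH livers, and at 10 months 7 adenomas (benign liver tumours), 5 TBT livers and 6 VEH livers. Since every adenoma is from the TBT arm, effects of tumour and of exposure cannot be told apart when adenoma is set against VEH liver. The labels give no dose and no strain for these groups and do not say that each library is a separate animal, so the errors measure the spread between libraries. All 10 hepatocyte markers examined were detected in every group. Library totals ran from 7513448 to 19270524 counts in TBT and 18603160 to 33704303 in VEH liver at 5 months, and from 21920649 to 32850438 over the 3 groups of 10 months. At 5 months 4 libraries stood apart. A list of 9 liver tumour genes summed to 213 CPM (read counts put on one common library size) in TBT replicate 4 and to 135 and 274 CPM in VEH replicates 4 and 6, against at most 29.7 CPM in the other TBT and 15.4 CPM in the other VEH livers of that age. TBT replicate 2 carried RNA of the intestinal brush border genes Sis and Alpi. Values without these 4 libraries are given beside those with them.

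The 10 genes belong to separate processes. Ngef (ephexin 1), Tab2 and Rnf25 act in signalling: a protein that acts downstream of Eph receptors, an adaptor that brings the kinase TAK1 to ubiquitin chains, and a RING-type ubiquitin ligase. Gpd1l, Sdhaf4 and Nt5c3 are metabolic proteins of the cytosol and mitochondrion. Golga5 tethers vesicles at the Golgi, Cfap20 is a conserved protein of cilia, and Clec2h is a cell surface lectin of the family recognised by NKR-P1 receptors of natural killer cells. TBT itself is an organotin that binds the nuclear receptors RXR and PPARG, which sit on DNA as a heterodimer at repeats of a short half-site. Clock proteins bind the E-box, a palindrome found at many promoters.

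Promoter windows from RefSeq on GRCm38.p6, from 250 bases before to 50 bases after a start site, were found for all 10 genes, 12 windows in all. The palindromic E-box CACGTG, which reads alike on both strands, was in windows of 3 of the 10 genes, and over the whole table in 8.09% of genes and 7.15% of 32851 windows. Those 3 windows are shown because clock genes were the class set aside when the members were chosen. Capitals mark the E-box, each sequence runs 5′ to 3′ on the gene's strand, and the windows are chr9:114933938-114934237 (minus strand) for Gpd1l, chr12:102468884-102469183 (plus strand) for Golga5 and chr8:95434820-95435119 (minus strand) for Cfap20.
Gpd1l: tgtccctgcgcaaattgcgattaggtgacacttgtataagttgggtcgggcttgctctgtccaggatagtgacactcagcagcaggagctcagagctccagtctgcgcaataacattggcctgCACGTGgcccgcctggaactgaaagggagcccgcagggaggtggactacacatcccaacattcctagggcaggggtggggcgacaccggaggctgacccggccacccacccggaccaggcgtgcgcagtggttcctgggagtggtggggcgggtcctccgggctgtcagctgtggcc
Golga5: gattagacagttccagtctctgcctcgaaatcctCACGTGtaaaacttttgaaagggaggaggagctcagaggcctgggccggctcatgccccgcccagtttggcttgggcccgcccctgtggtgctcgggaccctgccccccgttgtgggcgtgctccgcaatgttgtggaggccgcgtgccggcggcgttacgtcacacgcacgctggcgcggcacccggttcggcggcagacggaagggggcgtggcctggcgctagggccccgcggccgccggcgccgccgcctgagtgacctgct
Cfap20: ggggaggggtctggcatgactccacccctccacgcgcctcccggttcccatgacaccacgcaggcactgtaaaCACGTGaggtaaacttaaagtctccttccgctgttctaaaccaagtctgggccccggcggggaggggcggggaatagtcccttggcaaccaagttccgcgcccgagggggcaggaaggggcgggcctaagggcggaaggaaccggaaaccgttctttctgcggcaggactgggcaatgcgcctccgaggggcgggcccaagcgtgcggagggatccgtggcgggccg
The first base of the E-box lay 127 bases before the start in Gpd1l, 216 before it in Golga5 and 177 before it in Cfap20. A second window of Golga5, at chr12:102469660-102469959, also held CACGTG. Gpd1l and Cfap20 were higher in TBT liver at 5 months and Golga5 was lower, so the 3 genes with the motif did not share a direction. The half-site AGGTCA, searched on both strands, was in windows of 2 of the 10 genes (Ngef and the first window of Golga5) and of 18.1% of all genes. The tandem pair of half-sites with 1 base between them was in 0 of the 10 and in 0.0481% of all genes. These are matches of letters and say nothing of binding.

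At 5 months all 10 genes passed the adjusted p threshold of 0.05 in edgeR's quasi-likelihood test across 13055 genes, in a fit that shares its spread with the 11 livers of 10 months, as 2.03% of all genes did, which follows from the choice. Ngef, Gpd1l, Clec2h, Sdhaf4, Cfap20, A930004D18Rik and Nt5c3 were higher in TBT liver, where 1.07% of all genes passed as higher, and Golga5, Tab2 and Rnf25 were lower, where 0.957% passed as lower. Without the 4 libraries set apart, Ngef, Gpd1l, Golga5, Tab2 and Nt5c3 passed, 5 of 10 against 0.358% of all genes. With only the 2 groups of 5 months in the fit, 1 of the 10, Ngef, passed, and it was the only gene of the whole table to do so (0.00810%). The TBT and VEH libraries did not overlap for 8 of the 10 genes, against 1.19% of all genes, and the exceptions were Clec2h and Sdhaf4. The same 8 did not overlap without the 4 libraries, against 8.07% of all genes. All 10 kept the direction of their fold change without the 4 libraries. Clock genes moved in the same libraries. Arntl, the clock activator BMAL1, had 1.71 to 8.39 CPM in TBT and 13.8 to 44.3 CPM in VEH livers, and its target Per3 had 6.14 to 18.3 CPM in TBT and 0.566 to 3.33 CPM in VEH livers. The part of the clock in the members' differences was not tested.

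**Figure D1:**
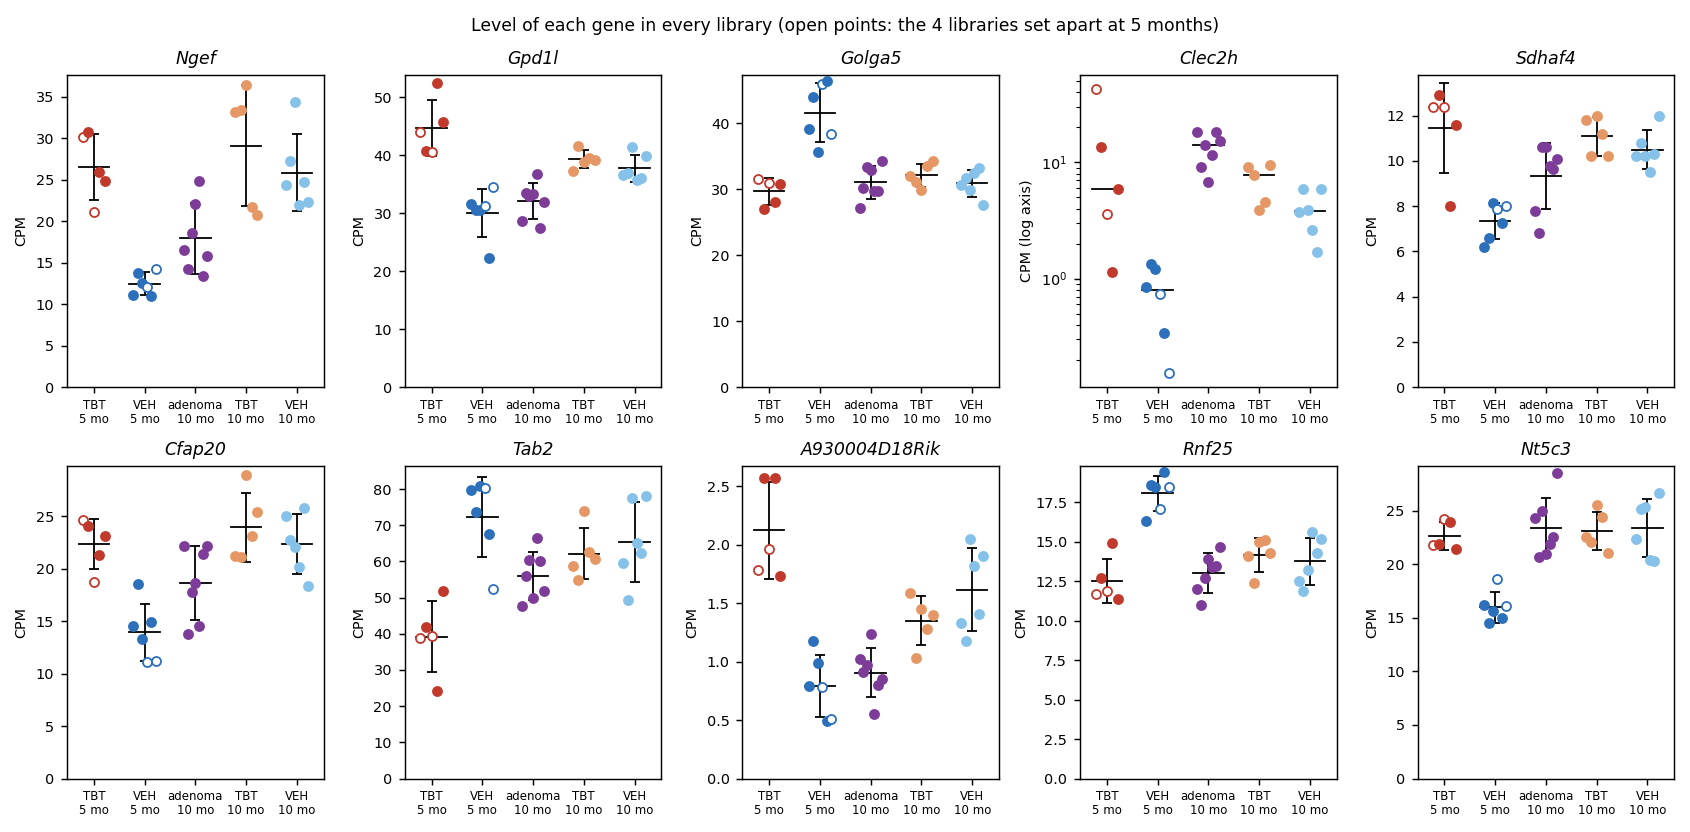
CPM of each gene (y axis from 0; a log axis for Clec2h) in each of 29 libraries by group (x axis: TBT and VEH liver of 5 months, adenoma, TBT and VEH liver of 10 months). Bars are group means with SD (the median for Clec2h), and open points are the 4 libraries set apart at 5 months. For Ngef the 5 TBT livers of 5 months lie between 21.1 and 30.7 CPM and the 6 VEH livers of that age between 11.0 and 14.3 CPM.

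Ngef (ENSMUSG00000026259, chr1:87476834-87573870, minus strand; gene coordinates are GRCm38, GENCODE M21) had 30.1, 30.7, 21.1, 25.9 and 24.8 CPM in TBT replicates 2 to 6 at 5 months. The VEH livers of that age had 11.0 CPM at the lowest, 12.4 at the median and 14.3 at the highest. The groups were well apart, with means of 26.5 ± 3.97 CPM in the 5 TBT livers and 12.5 ± 1.37 CPM in the 6 VEH livers (± SD). The log2 fold change was 1.10 (SE 0.15), and 1.19 (SE 0.19) without the 4 libraries. At 10 months Ngef had 33.2, 33.4, 36.4, 21.7 and 20.8 CPM in TBT liver and 21.9 to 34.4 CPM in VEH liver, median 24.6. Both arms of 10 months thus lay above every VEH liver of 5 months and around the TBT livers of 5 months, a statement that rests on the same 6 VEH libraries as the 5-month difference. Ngef shares 123 bases of exon with Neu2 on the opposite strand, and Neu2 reached at most 3.20 CPM in any library.

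Tab2 (ENSMUSG00000015755, chr10:7905653-7956230, minus strand) was lower in TBT liver at 5 months, at 38.8, 41.8, 39.3, 24.3 and 51.8 CPM in replicates 2 to 6. VEH liver had 52.4 CPM at the lowest, 76.6 at the median and 80.9 at the highest. The gap between the groups was narrow, since TBT replicate 6 reached 51.8 CPM and VEH replicate 6, one of the libraries set apart, was at 52.4 CPM. The log2 fold change was -0.87 (SE 0.15), and -0.91 (SE 0.19) without the 4 libraries. At 10 months Tab2 had 58.6, 55.0, 74.0, 62.5 and 60.8 CPM in TBT liver and 49.4 to 78.2 CPM in VEH liver, median 63.7. Unlike Ngef, Tab2 at 10 months lay near the VEH livers of 5 months, and 10 of the 11 livers fell within their range. For each other member, 9 to 11 of the 11 livers lay beyond every VEH liver of 5 months, on the side of the TBT livers. These counts rest on the same VEH libraries as the 5-month differences. The share of all genes with such a position is not given, so the counts have no baseline and mark no trait of the members.

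Rnf25 (ENSMUSG00000026171, chr1:74593748-74601397, minus strand) is reported in human cells to act on stalled ribosomes. At 5 months it had 11.7, 12.7, 11.9, 14.9 and 11.4 CPM in TBT replicates 2 to 6, against 16.3 to 19.4 CPM in VEH liver, median 18.5. Every TBT library was below every VEH library, with a log2 fold change of -0.52 (SE 0.09), and -0.47 (SE 0.13) without the 4 libraries. Its rank by p was 208 without the 4 libraries, the lowest standing of the 10 genes in that fit. At 10 months it had 12.4 to 15.1 CPM in TBT liver and 11.9 to 15.6 CPM in VEH liver, all below the VEH livers of 5 months.

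Gpd1l (ENSMUSG00000050627, chr9:114899341-114933987, minus strand) encodes a cytosolic enzyme related to glycerol 3-phosphate dehydrogenase, and its human gene is linked to inherited heart rhythm disorders. It had 44.0, 40.8, 40.5, 52.4 and 45.7 CPM in TBT replicates 2 to 6 at 5 months. VEH liver had 22.2 CPM at the lowest, 30.8 at the median and 34.6 at the highest. The groups did not overlap, and VEH replicate 5 lay well below the other VEH livers. Within groups, deviations of Gpd1l from the group mean had an r of -0.49 with the log2 library total, and -0.74 without the 4 libraries. Library totals at 5 months were 7513448 to 19270524 counts in TBT and 18603160 to 33704303 in VEH liver. The part of depth in the Gpd1l values was not tested. The log2 fold change was 0.58 (SE 0.09), and 0.71 (SE 0.11) without the 4 libraries. At 10 months the spread was narrow, with 37.2, 41.6, 38.9, 39.6 and 39.2 CPM in TBT liver and 35.8 to 41.5 CPM in VEH liver, median 36.8. The SD within TBT liver was 1.60 CPM at 10 months and 4.86 CPM at 5 months, and within VEH liver 2.34 and 4.15 CPM. The cause of this difference was not tested.

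Sdhaf4 (ENSMUSG00000026154, chr1:23995939-24005656, minus strand) is an assembly factor of succinate dehydrogenase, complex II of the respiratory chain. It had 12.4, 12.9, 12.4, 8.00 and 11.6 CPM in TBT replicates 2 to 6 at 5 months and 6.19 to 8.15 CPM in VEH liver, median 7.56. TBT replicate 5, at 8.00 CPM and with the smallest counts (56 reads), fell within the VEH range, and the other TBT livers exceeded it. The log2 fold change was 0.66 with all libraries (SE 0.12) and without the 4 (SE 0.15). At 10 months it had 10.2 to 12.0 CPM in TBT liver and 9.50 to 12.0 CPM in VEH liver. It shares 111 bases of exon with Gm26524 on the opposite strand, a locus not analysed here.

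Nt5c3 (ENSMUSG00000029780, chr6:56882400-56923932, minus strand), a pyrimidine 5′-nucleotidase whose loss in humans causes haemolytic anaemia, had 21.8, 21.9, 24.2, 24.0 and 21.4 CPM in TBT replicates 2 to 6 at 5 months. VEH liver had 14.5 to 18.6 CPM, median 15.8. The groups did not overlap, and the log2 fold change was 0.51 (SE 0.09), or 0.57 (SE 0.11) without the 4 libraries. The 9 erythroid markers in the table summed to 496 to 1369 CPM in TBT and 219 to 1193 CPM in VEH livers of 5 months, with medians of 754 CPM in TBT and 242 CPM in VEH liver and none at 0 in a whole group. At 10 months Nt5c3 had 21.1 to 25.5 CPM in TBT and 20.3 to 26.7 CPM in VEH liver, and the erythroid sums were 152 to 374 CPM in TBT and 235 to 561 CPM in VEH liver. The part of erythroid RNA in the Nt5c3 values was not tested.

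Golga5 (ENSMUSG00000021192, chr12:102469135-102497907, plus strand), golgin-84, had 31.6, 27.0, 31.0, 28.0 and 30.8 CPM in TBT replicates 2 to 6 at 5 months. VEH liver had 35.7 to 46.4 CPM, median 41.6, and each VEH library was above each TBT library. The log2 fold change was -0.47 (SE 0.08), and -0.51 (SE 0.10) without the 4 libraries. At 10 months the levels were 29.9 to 34.2 CPM in TBT liver and 27.6 to 33.2 CPM in VEH liver. Cfap20 (ENSMUSG00000031796, chr8:95420249-95434869, minus strand) had 24.6, 24.1, 18.7, 21.3 and 23.1 CPM in TBT replicates 2 to 6 at 5 months, against 11.1 to 18.5 CPM in VEH liver, median 13.9. The lowest TBT library, replicate 4 at 18.7 CPM, was just above the highest VEH library, replicate 2 at 18.5 CPM. Its log2 fold change was 0.70 (SE 0.12), and 0.60 (SE 0.14) without the 4 libraries. At 10 months Cfap20 had 21.1 to 28.9 CPM in TBT liver and 18.3 to 25.8 CPM in VEH liver.

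Clec2h (ENSMUSG00000030364, chr6:128662385-128677374, plus strand) varied most. It had 43.0, 13.6, 3.59, 1.14 and 5.88 CPM in TBT replicates 2 to 6 at 5 months and 0.154 to 1.34 CPM in VEH liver, median 0.795. TBT replicate 5, at 1.14 CPM from 8 reads, lay within the VEH range, and VEH replicate 6 had 3 reads. The log2 fold change was 4.18 (SE 0.68), and 2.98 (SE 0.64) without the 4 libraries. Leaving out TBT replicate 2 alone gave 3.04. In that library Sis had 668 CPM and Alpi 401 CPM, while in the other TBT livers of 5 months Sis had 0.0857 to 0.326 CPM and Alpi 0 to 0.0857 CPM. The 15 markers of intestinal epithelium summed to 615 to 4551 CPM in TBT and 619 to 1920 CPM in VEH livers of 5 months, with Cdx1 and Cdx2 at 0 in all VEH livers. Apoa4 and Anpep, which liver also expresses, hold much of those sums. The part of intestinal RNA in Clec2h at 5 months was not tested. Clec2h is one of several related Clec2 genes, so its counts are uncertain where reads match a relative. Fewer cells of a type and less RNA per cell cannot be told apart in bulk tissue.

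**Figure D2:**
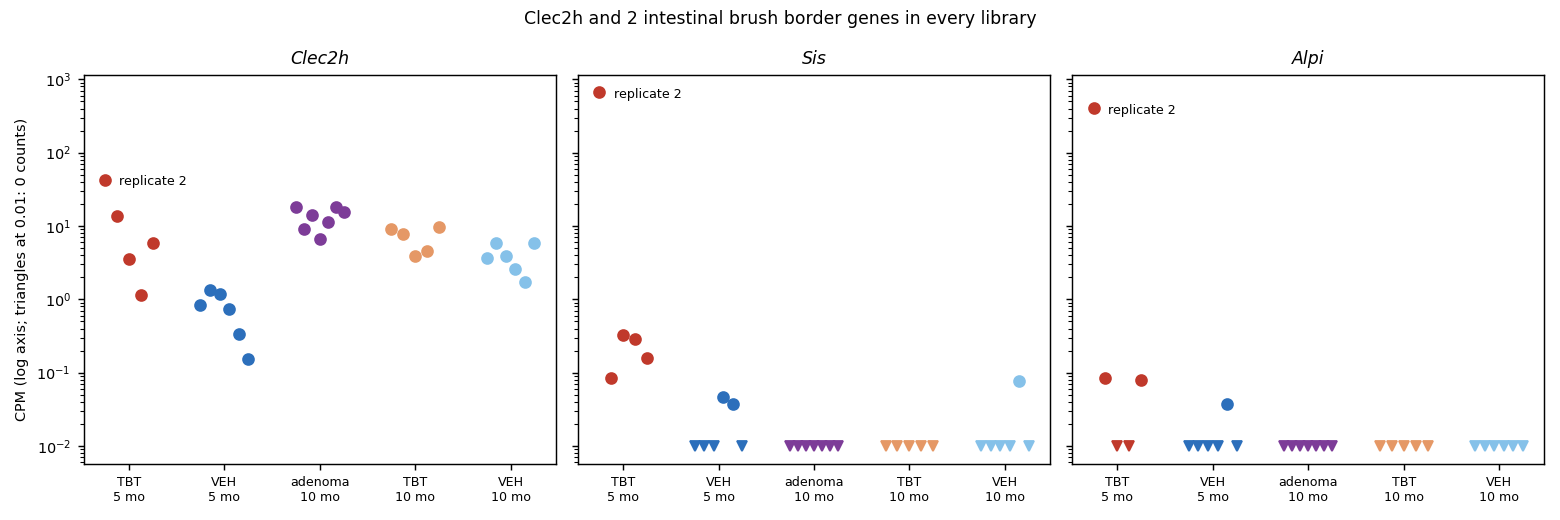
CPM on a log axis of Clec2h and of the intestinal genes Sis and Alpi in each of 29 libraries by group, with libraries at 0 counts drawn as triangles at 0.01. TBT replicate 2 of 5 months is highest for all 3 genes. In adenomas Clec2h is 6.73 to 18.3 CPM and Sis and Alpi are at 0. Of the 15 intestinal markers 3 are at 0 in all adenomas, and the list sums to 925 to 2709 CPM there. Vil1 and Krt20 have medians of 5.20 and 6.48 CPM in adenomas and 0.169 and 0 CPM in TBT liver of 10 months. Fabp2 has medians of 83.9 CPM in adenomas and 105 CPM in that liver. The part of intestinal RNA in Clec2h in adenomas was not tested.

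At 10 months Clec2h had 9.05, 7.71, 3.89, 4.54 and 9.56 CPM in TBT liver and 1.71 to 5.94 CPM in VEH liver, median 3.81. Sis and Alpi were at 0 in all TBT livers of that age, and in the VEH livers Alpi was at 0 and Sis reached 0.0760 CPM in replicate 6. The intestinal list summed to 653 to 1615 CPM in TBT and 714 to 1115 CPM in VEH liver. It was highest in TBT replicate 10, which also had the most Clec2h. Apoa4, which liver also expresses, held much of those sums, at 453 to 1362 CPM in TBT and 470 to 880 CPM in VEH liver. The part of intestinal RNA in Clec2h at 10 months was not tested. A930004D18Rik (ENSMUSG00000054057, chr2:18025193-18037737, minus strand), a coding gene with no described role known here, had low counts, between 10 and 51 reads per library. At 5 months it had 1.78, 2.57, 1.96, 2.57 and 1.73 CPM in TBT replicates 2 to 6, against 0.493 to 1.18 CPM in VEH liver, median 0.788. The groups did not overlap, and the log2 fold change was 1.43 both with all libraries (SE 0.25) and without the 4 (SE 0.31). At 10 months it had 1.59, 1.03, 1.45, 1.28 and 1.40 CPM in TBT liver and 1.18 to 2.05 CPM in VEH liver, median 1.61, so the VEH median was the higher one.

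Per kilobase of exon the levels differed among the genes, and those of Clec2h and A930004D18Rik were low. In VEH liver of 5 months Golga5 averaged 12.1 and Tab2 11.8 CPM per kilobase, Sdhaf4 and Rnf25 8.40 and 8.29, and Clec2h and A930004D18Rik 0.285 and 0.234. In TBT liver of that age Sdhaf4 averaged 13.1 CPM per kilobase and was highest, followed by Gpd1l at 8.80 and Golga5 at 8.61, while A930004D18Rik at 0.628 stayed lowest.

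The exposure comparison at 10 months was fitted without any 5-month library. Its livers did enter the fit behind the choice of genes, where they shared in the estimate of spread but not in the fold changes. Of the 10 genes, 0 passed the adjusted p threshold of 0.05 in edgeR's quasi-likelihood test, and 0% of the 13474 genes tested did. At an unadjusted p under 0.05 there were 595 genes, and 1 member, Clec2h. DESeq2 called 2 genes and 0 members, with 699 genes and 1 member under that unadjusted p. Clec2h had a log2 fold change of 0.81 (SE 0.33, 95% interval 0.12 to 1.49, edgeR unadjusted p = 0.0243, adjusted p = 0.9995), with 4 of 5 TBT livers above the VEH mean. Its adjusted p ran from 0.615 to 1 over the 18 alternatives examined. Ngef, at 0.17, had an interval of -0.21 to 0.54, which lies below its 5-month value of 1.10. The interval of Gpd1l was -0.10 to 0.21, against 0.58 at 5 months, and that of Tab2 was -0.32 to 0.17, against -0.87. A930004D18Rik, at -0.26, had an interval of -0.70 to 0.18, against 1.43 at 5 months. Golga5, Sdhaf4, Cfap20, Rnf25 and Nt5c3 had log2 fold changes between -0.02 and 0.09. The groups overlapped for all 10 genes, and 0.727% of all genes had groups that did not. The difference between the ages was not tested, since the 5-month values chose the genes and a choice by small p favours values far from 0.

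**Figure D3:**
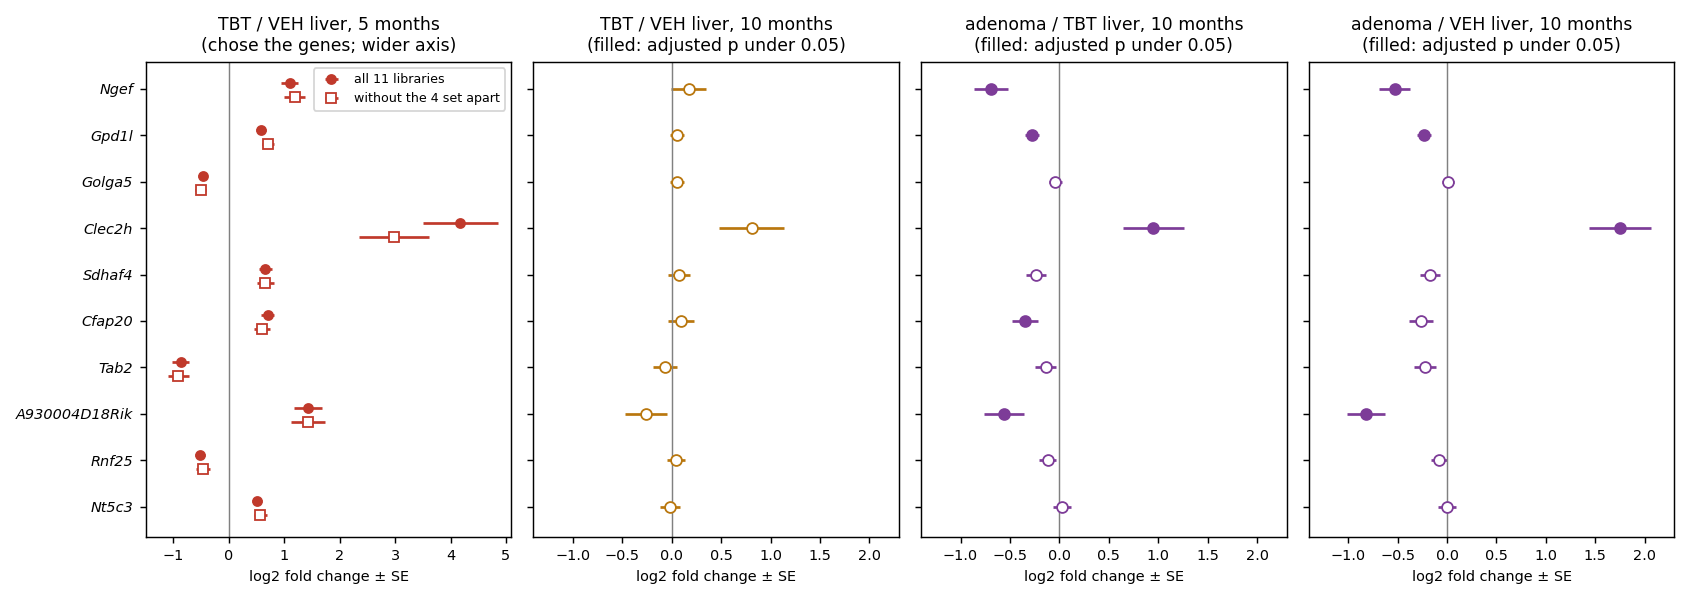
Log2 fold change with SE (x axis) of each gene (rows) for TBT over VEH liver at 5 months, on a wider axis, then for TBT over VEH liver, adenoma over TBT liver and adenoma over VEH liver at 10 months. Filled points at 10 months mark an adjusted p under 0.05. At 10 months TBT over VEH holds no filled point, and Clec2h is farthest from 0 at 0.81.

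Adenomas were compared with TBT liver of the same age and the same label. Of the 10 genes 5 passed the threshold, 4 lower and Clec2h higher, a share near the 44.7% of all genes that passed (20.8% lower and 23.9% higher). Ngef had 13.4 CPM at the lowest, 16.5 at the median and 24.9 at the highest in adenomas, a mean of 17.9 ± 4.22 CPM against 29.1 ± 7.28 CPM in TBT liver (SD, n = 7 and 5). It fell by 0.69 on the log2 scale (SE 0.17, edgeR adjusted p = 0.00308), with all 7 adenomas below the mean of the TBT livers. Gpd1l fell by 0.28 (SE 0.07, edgeR adjusted p = 0.0032), at 27.5 to 36.8 CPM in adenomas, median 33.0. It was the 1 member whose adenomas all lay below all TBT livers, as they did for 8.81% of all genes.

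Clec2h was higher in adenomas, at 6.73 CPM at the lowest, 14.2 at the median and 18.3 at the highest. Its log2 fold change over TBT liver was 0.95 (SE 0.31, edgeR adjusted p = 0.0203), with 2 adenomas inside the range of the TBT livers. The call was lost when TBT replicate 8 or 9 was left out, with log2 fold changes of 0.80 and 0.82. Cfap20 fell by 0.35 (SE 0.13, edgeR adjusted p = 0.0294), at 13.8 to 22.2 CPM in adenomas, median 18.6. A930004D18Rik fell by 0.56 (SE 0.20, edgeR adjusted p = 0.0316), at 0.555 to 1.24 CPM in adenomas, median 0.909. Both calls were lost when TBT replicate 8 or 10 or adenoma replicate 7 was left out. Cfap20 was also lost without adenoma replicate 3 or 5, and A930004D18Rik without TBT replicate 2 or adenoma replicate 11 or 12, with adjusted p up to 0.0966 for Cfap20 and 0.0773 for A930004D18Rik. Sdhaf4, at -0.24 (SE 0.10, edgeR adjusted p = 0.0673), passed only without adenoma replicate 6. Golga5, Tab2, Rnf25 and Nt5c3 had log2 fold changes between -0.14 and 0.03 and did not pass.

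Against VEH liver, 4 of the 10 genes passed, a share near the 52.6% of all genes that did (24.8% lower and 27.9% higher). With 1 library left out, 4 to 5 of the members passed. Clec2h had a log2 fold change of 1.75 (SE 0.31, edgeR adjusted p = 1.42e-04), and all 7 adenomas, at 13.4 ± 4.41 CPM, exceeded all 6 VEH livers, at 3.97 ± 1.72 CPM. All adenomas exceeded all VEH livers for 11.6% of all genes, and the Clec2h call held in all 18 alternatives examined, at 1.60 to 1.91. A930004D18Rik fell by 0.82 (SE 0.19, edgeR adjusted p = 0.00166), at 0.907 ± 0.212 CPM in adenomas, against 1.61 ± 0.355 CPM in VEH liver. Ngef fell by 0.53 (SE 0.16, edgeR adjusted p = 0.0116) and Gpd1l by 0.23 (SE 0.07, edgeR adjusted p = 0.00754). Cfap20, at -0.26 (SE 0.12, edgeR adjusted p = 0.0793), passed without adenoma replicate 1 or VEH replicate 7. Tab2, at -0.22 (SE 0.11, edgeR adjusted p = 0.0917), passed without adenoma replicate 7 or VEH replicate 2. Sdhaf4, Rnf25, Golga5 and Nt5c3 lay between -0.17 and 0.01. The comparisons with TBT and VEH liver share the adenomas, so their values are given side by side only.

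Marker sums of several cell types also differed between adenoma and liver. The 10 hepatocyte markers summed to 68482 to 125245 CPM in adenomas, 116069 to 131869 CPM in TBT liver and 127337 to 162084 CPM in VEH liver. The 7 cholangiocyte markers summed to 158 to 767 CPM in adenomas, 39.9 to 63.2 CPM in TBT liver and 41.6 to 58.5 CPM in VEH liver, with none at 0 in a whole group. The 9 markers of T cells and of NK cells, the carriers of NKR-P1 receptors, summed to 5.39 to 13.9 CPM in adenomas, 3.05 to 4.93 CPM in TBT liver and 2.74 to 3.90 CPM in VEH liver, again with none at 0 in a whole group. Their part in the members' values was not tested.

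Other genes of most members' pathways were counted in the same fits, and in TBT against VEH liver at 10 months 0 of them passed in any list given here by edgeR. In adenoma against TBT liver 23.9% of all genes passed as higher and 20.8% as lower. The list counts were not tested against these shares. Beside Tab2, 34 genes of TAK1 and NF-kB signalling held 12 higher and 5 lower in adenoma against TBT liver, with a median log2 fold change of 0.11 against 0.01 over all genes. Tnip1, an inhibitor of NF-kB signalling, had 23.9 ± 8.83 CPM in adenomas and 7.59 ± 0.895 CPM in TBT liver, and Chuk, an IkB kinase subunit, had 114 ± 12.0 CPM in adenomas and 175 ± 17.2 CPM in TBT liver. Beside Rnf25, 19 genes of stalled ribosome handling held 1 higher and 5 lower, median 0.00, and the ligase Zfp598 had 28.7 ± 3.06 CPM in adenomas and 41.4 ± 2.40 CPM in TBT liver.

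Beside Gpd1l, 16 genes of glycerol 3-phosphate metabolism and NADH shuttles held 1 higher and 4 lower in adenoma against TBT liver. Over all genes the shares were again 23.9% higher and 20.8% lower. The 16 genes had a median log2 fold change of -0.16, and the glycerol channel Aqp9 had 308 ± 111 CPM in adenomas and 580 ± 51.9 CPM in TBT liver. Beside Sdhaf4, 20 genes of succinate dehydrogenase and the citric acid cycle held 2 higher and 4 lower, median -0.01. The assembly factor Sdhaf2 had 19.4 ± 1.72 CPM in adenomas and 25.1 ± 1.67 CPM in TBT liver. Beside Nt5c3, 19 genes of pyrimidine breakdown and salvage held 3 higher and 6 lower, median -0.11, with the uridine-cytidine kinase Uck1 at 26.6 ± 6.99 CPM in adenomas and 49.4 ± 12.4 CPM in TBT liver. Beside Golga5, 25 golgins and Golgi tethers held 3 higher and 8 lower, median -0.07. Beside Cfap20, which was lower in adenoma, 26 tested cilia genes held 8 higher and 2 lower, median 0.23, and Ift122, of intraflagellar transport, had 10.7 ± 2.11 CPM in adenomas and 5.12 ± 1.24 CPM in TBT liver. Beside Clec2h only 3 relatives and receptors had enough counts, and Clec2d, another lectin of the family, was the 1 called, lower at 83.8 ± 34.2 CPM in adenomas and 197 ± 18.7 CPM in TBT liver. Clec2h and Clec2d thus had called changes of opposite sign against TBT liver.

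At 5 months the same lists held few called genes besides the members, where 1.07% of all genes passed as higher and 0.957% as lower. The counts were 1 lower of 34 in TAK1 and NF-kB signalling, 1 lower of 25 golgins and tethers, 1 higher of 19 in pyrimidine metabolism and 1 higher of 19 in stalled ribosome handling. They were 0 of 20 for the citric acid cycle, 0 of 16 for glycerol 3-phosphate, 0 of 2 Clec2 and Nkrp1 genes and 0 of 25 cilia genes by edgeR. The 22 clock genes held 6 higher and 2 lower, with a median log2 fold change of 0.47 against 0.02 over all genes. At 10 months 0 of the 22 passed between TBT and VEH liver.

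The 10 genes were also set against each other within groups. Deviations of log2 CPM from the group mean gave Pearson r from -0.42 to 0.40 over 45 pairs, median 0.03, across 29 libraries. The highest was between Clec2h and Tab2, at 0.40, and the lowest between Gpd1l and Cfap20, at -0.42. Without the 4 libraries the highest was between Sdhaf4 and Tab2, at 0.49, with Clec2h and Tab2 at 0.38, and Gpd1l and Cfap20 were again lowest at -0.40. Deviations of Tab2 had an r of 0.67 with those of Arntl, and 0.74 without the 4 libraries. It is named as the highest r over all libraries between a member and the marker and clock genes set beside it. With Per3 the r of Tab2 was -0.20, and -0.07 without the 4 libraries. The other members had an r with Arntl from -0.05 (Ngef) to 0.48 (Sdhaf4) over all libraries. Deviations of Gpd1l had an r of -0.49 with the log2 library total, and -0.74 without the 4 libraries, and those of Clec2h 0.56 and 0.27. All these points share libraries, depth and group means, and they are given without a test.

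**Figure D4:**
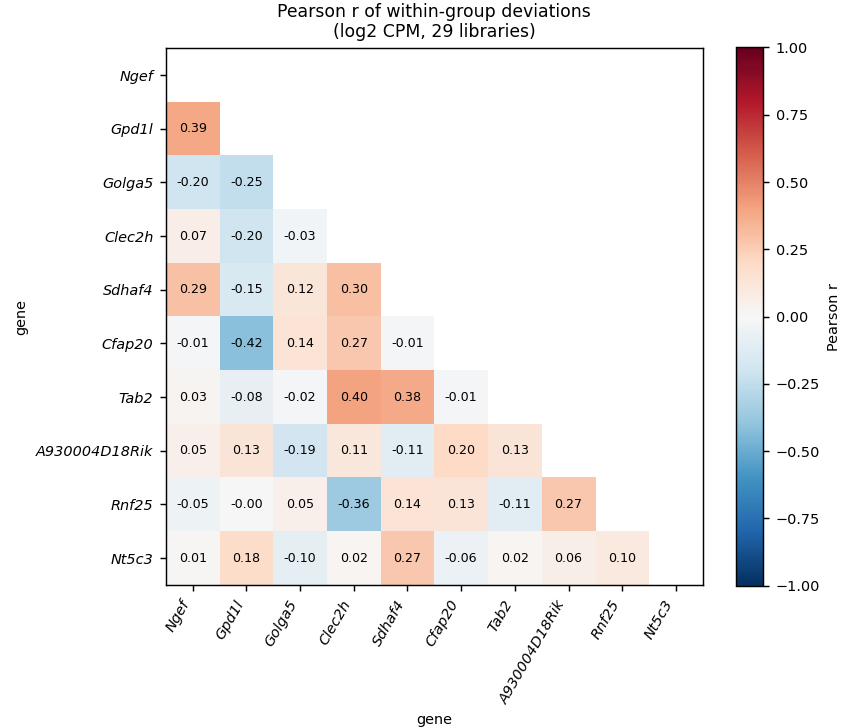
Pearson r (colour and printed value) between the deviations of each pair of the 10 genes from their group means, in log2 CPM over 29 libraries. Values run from -0.42 to 0.40, with a median of 0.03.

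By the same measure, no gene was among the 2 closest to more than 1 member. Each best match is the highest r among all genes outside the members with a mean of at least 2 CPM. Such a maximum is high by choice, and best matches of other genes are not given for comparison. Ngef was most like Aldh1l1, a folate enzyme, with r 0.79, and Gpd1l most like Nicn1, with r 0.81. Clec2h was most like Nr3c2, the mineralocorticoid receptor, with r 0.81 over all libraries and 0.73 without the 4. Sdhaf4 was most like Dnajc8, with r 0.79, and Cfap20 most like Aasdh, with r 0.79. Golga5 followed Nxf1, an mRNA export factor, with r 0.75, Tab2 followed Lrit2 and Sltm with r 0.76 each, and Rnf25 followed Gtf2h3, a subunit of the transcription factor TFIIH, with r 0.76. The weakest best matches were those of A930004D18Rik with Meis1 and of Nt5c3 with Fabp4, with r 0.62 each.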

How the data were processed

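The authors deposited raw read counts per coding gene in 1 table of 29 libraries. The tools named, per the submitters' processing notes, are HISAT2, featureCounts, Trim Galore, FastQC and edgeR, on build mm10. Their versions, the annotation and whether strand was used were not given in the labels, so overlapping, antisense and paralogous genes are uncertain. Libraries were stranded total RNA, per the labels' protocols. One TBT liver of 10 months has different numbers in its title and column, and the column's 9 was used.

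Counts were tested with edgeR 4.0.16 in R 4.3.3: filterByExpr (minimum count 10, minimum total 15), TMM, robust quasi-likelihood fits, 2-sided, Benjamini-Hochberg adjustment at 0.05. The 18 libraries of 10 months formed the tested fit of 13474 genes, and the 22 livers a descriptive fit of 13055 genes for 5 months. All 10 members passed both filters. CPM was scaled by TMM over 29 libraries without a filter. Deviations used log2 CPM with a prior count of 2, with a minimum mean of 2 CPM. Fits were checked on simulated counts. No 2 columns were identical.

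The members and all gene lists were chosen with earlier results of these data known. Named genes are the members, the genes most like each, up to 3 called genes a list by smallest p, and marker genes beside a result. Alternatives were scaling, filter, DESeq2 1.42.0, groups in the fit, replicate block, thinning and omission of libraries. The pathway list beside Ngef is not reported here. Symbols stored as dates (27) were restored. Depth limits the low genes most in TBT liver of 5 months.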

Additional observations from a re-analysis of the deposited data

Results flagged for a closer look

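In 50 combinations of a gene and a group, 2 held a library far from the rest, and chance alone marks about 1 in 20 such groups. Gpd1l had 22.2 CPM in VEH replicate 5 of 5 months, below the next VEH liver at 30.5 CPM. Sdhaf4 had 8.00 CPM in TBT replicate 5 of 5 months, below the next TBT liver at 11.6 CPM.

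A930004D18Rik lay above the VEH mean in every TBT liver at 5 months and below it in every TBT liver at 10 months, with log2 fold changes of 1.43 and -0.26. The difference between the ages was not tested, since the 5-month value chose the gene.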

How the results depend on the processing

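Each 10-month result was recomputed under 17 or 18 alternatives and each 5-month value under 20. In the 5-month description all 10 genes kept their direction, with a median size of 0.68 (0.64 to 0.73 over the alternatives), but the count of genes passing over the whole table moved widely. It was 265 with all libraries, 47 without the 4 libraries set apart, 71 without the library with intestinal RNA alone, 600 with DESeq2, 1 (Ngef) with only the 2 groups of 5 months in the fit, and 71 to 414 with 1 library left out. Depth limits that comparison, and counts thinned to the smallest total gave 196 genes. At 10 months DESeq2 called 2 genes between TBT and VEH liver. For adenoma against TBT liver 3 members (Ngef, Gpd1l and Clec2h) passed with only those 2 groups in the fit, and 2 to 6 with 1 library left out.

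Whether the replicate numbers pair the libraries was not settled. Same-numbered livers of 5 months had correlations of deviations from -0.47 to 0.67, and those of 10 months 0.04 and -0.11. Adenomas and VEH livers of the same number had -0.05 to 0.17. Values for libraries of different numbers are not given, so these correlations have no baseline and cannot decide it. With the number as a block, 31 genes passed at 5 months and 1 between TBT and VEH liver at 10 months. Adenomas and TBT livers share no number, so under the block they can be compared only through the VEH livers, and 63 genes and 0 members passed there. Against VEH liver 4359 genes and 2 members (Clec2h and Cfap20) passed under the block, and Ngef, Gpd1l and A930004D18Rik did not, with edgeR adjusted p of 0.243, 0.142 and 0.128. Under the block the log2 fold change of Cfap20 in TBT over VEH liver at 10 months was -0.09, and that of Golga5 in adenoma over VEH liver was -0.01.

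The other changes of sign were in values near 0. Without a filter Golga5 and Nt5c3 in adenoma over VEH liver were at 0.00 and -0.01. With 1 library left out, Golga5 ran from -0.02 to 0.04 and Nt5c3 from -0.04 to 0.05 in that comparison, Nt5c3 from -0.02 to 0.06 in adenoma over TBT liver, and Nt5c3 from -0.06 to 0.02 and Rnf25 from 0.00 to 0.08 in TBT over VEH liver of 10 months. The cause of these changes was not tested.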
